A study of Mus musculus with 6 samples.

Results

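The genes described here encode 8 cell-surface adhesion proteins: the immunoglobulin-type molecules Icam1, Icam2, Vcam1, Pecam1, Ceacam1 and F11r, the selectin ligand Selplg, and the hyaluronan receptor Cd44. The members were taken by name, and all 8 were found among 19938 genes with a single-symbol row on the array, each with 1 row. The RNA came from CD11b+Gr-1+ cells, labelled myeloid-derived suppressor cells and sorted from livers of C57BL/6 mice bearing tumours of EL4, a transplantable mouse lymphoma line. The 6 arrays comprised 3 of the Con A group, injected with concanavalin A, a jack bean lectin used to provoke T cell-driven hepatitis, and 3 of the PBS group. All mice were of the same strain and carried the tumour, and cells were collected 3 hours after injection. The Con A was of Type IV, and its dose reads 12.5 mg/kg in the design text but 12.5 ug/kg under treatment, which is not settled here. The PBS samples are called untreated in their titles. No age, sex or separate genotype is given, and no tumour-free mice enter the comparison. The labels give 3 mice per group without tying each array to 1 mouse, so the spread behind each p-value may be technical in part.

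Leukocytes leave the blood in steps. Selectins on vessel walls catch sugar-bearing ligands such as PSGL-1, the product of Selplg, and leukocyte integrins then bind immunoglobulin-type partners: LFA-1 and Mac-1 bind ICAM-1, LFA-1 binds ICAM-2, and VLA-4 binds VCAM-1. PECAM-1 and JAM-A, the product of F11r, sit at cell junctions and on leukocytes and take part in passage between endothelial cells. CEACAM1 and PECAM-1 carry inhibitory tyrosine motifs that recruit the phosphatases SHP-1 and SHP-2, and CD44 binds hyaluronan, a matrix sugar to which neutrophils adhere in liver sinusoids. Icam1 and Vcam1 are textbook targets of NF-kB, and Icam1 is also induced by interferon-gamma.

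The promoter of Icam1, the member with the largest difference, is shown because it holds matches to motifs of both of these routes. The promoter of Ceacam1, the member with the largest fall, is set beside it because no motif searched was found in that window. The pair was chosen with differences and matches known, so a link between motifs and direction was not tested. Both windows run from 250 bases before to 50 bases after a RefSeq gene start in GRCm38.p6, 5′ to 3′ on the gene's strand, and capitals mark motif matches.
Icam1 (chr9:21015690-21015989, plus strand): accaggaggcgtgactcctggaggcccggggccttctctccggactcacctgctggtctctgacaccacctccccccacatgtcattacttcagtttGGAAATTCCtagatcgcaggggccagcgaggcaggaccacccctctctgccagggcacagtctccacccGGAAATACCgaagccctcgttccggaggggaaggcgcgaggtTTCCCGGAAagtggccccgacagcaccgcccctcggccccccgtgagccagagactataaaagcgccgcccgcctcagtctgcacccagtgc
Ceacam1 (chr7:25477576-25477875, minus strand): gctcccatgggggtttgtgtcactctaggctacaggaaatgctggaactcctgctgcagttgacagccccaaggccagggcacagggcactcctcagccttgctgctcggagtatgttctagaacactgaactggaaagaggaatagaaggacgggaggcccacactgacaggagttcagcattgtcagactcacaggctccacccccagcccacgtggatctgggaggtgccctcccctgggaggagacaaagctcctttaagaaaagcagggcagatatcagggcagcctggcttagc

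The motifs searched on both strands were a loose NF-kB pattern, GGNNNTTCC, the interferon-gamma-activated site (GAS) pattern, TTCNNNGAA, and the core of the interferon-stimulated response element. In the Icam1 window, GGAAATTCC lay 153 to 145 bases before the start and GGAAATACC, a match on the opposite strand, 84 to 76 bases before it. The GAS match TTCCCGGAA lay 42 to 34 bases before the start, and the matches did not overlap. Of the 8 members, 4 had a promoter entry. Among these, F11r held 1 NF-kB match, GGCTGTTCC, 29 to 37 bases after its start, and Cd44 held no match to any of the 3 motifs. Over all 32851 windows of that length, 18.5% held the NF-kB pattern, 8.3% the GAS pattern and 3.44% the response element core. A match describes the letters and not binding.

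After Con A, Icam1, Pecam1 and Vcam1 rose and Ceacam1 and Selplg fell, while Icam2, F11r and Cd44 did not pass the test. Of the 8 members, 5 passed (limma, adjusted p under 0.05 over all genes), beside 11.8% of all genes tested. Without Con A replicate 2 the count was 3, and of the 5, only Icam1, Pecam1 and Ceacam1 then passed. The 3 that rose stand beside 4.59% of all genes that were called higher, and the 2 that fell beside 7.22% called lower. All 3 rises were 2-fold or more, which 1.2% of all genes reached in that direction, and neither fall was that large, as were 0.863% of all genes. The arrays of the groups did not overlap for 6 members, 3 higher and 3 lower, against 29.9% of all genes. The median difference of the members was 0.21 on the log2 scale, and that of all genes was 0.02.

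**Figure D1:**
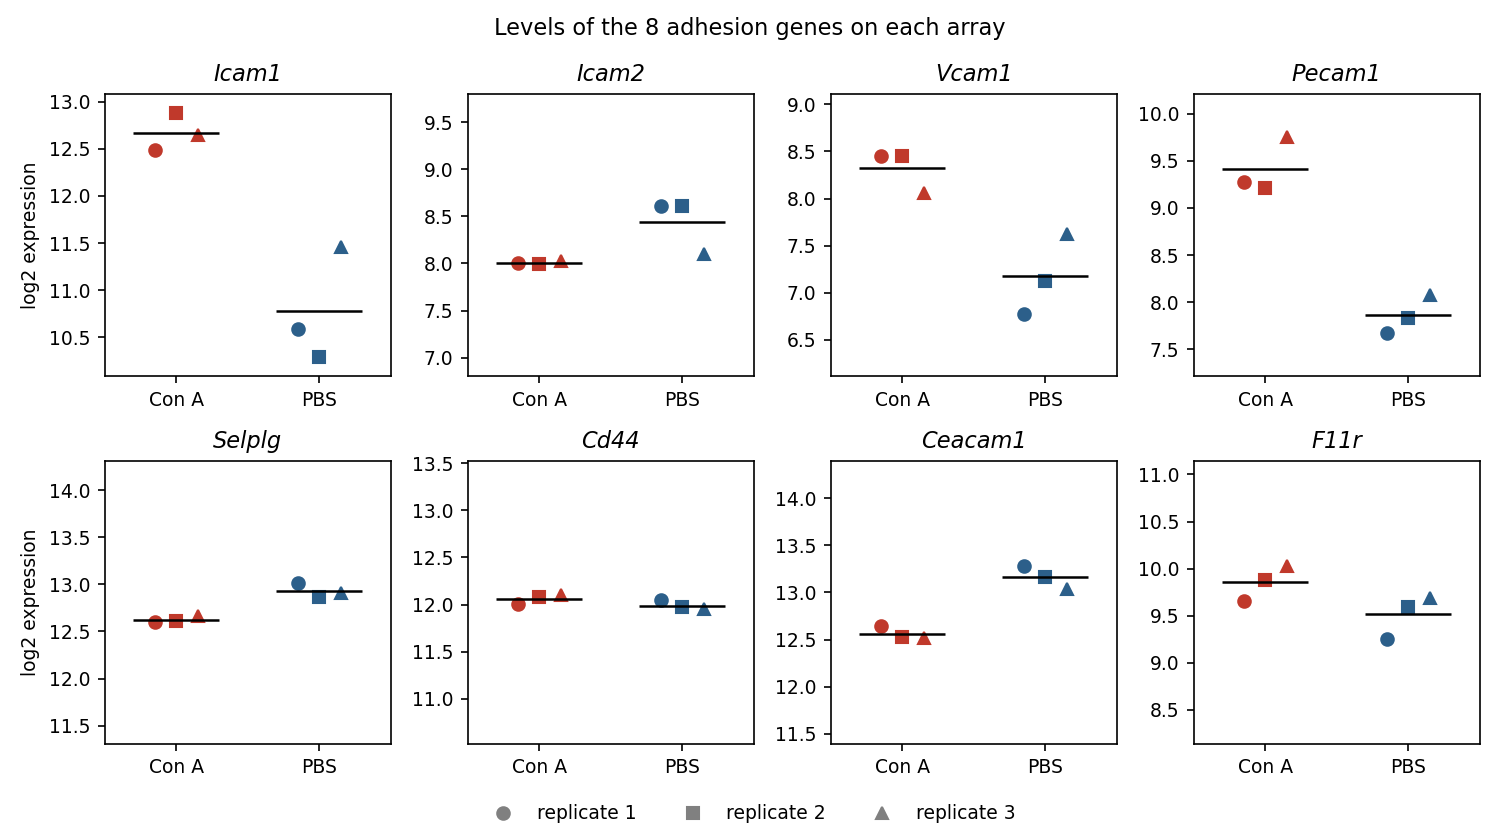
Each panel plots the deposited log2 expression of 1 gene on every array, Con A at the left and PBS at the right. Symbols give the replicate number, horizontal lines the group means, and every vertical axis spans the same 3 log2 units. Icam1, Pecam1 and Vcam1 lie higher in all 3 Con A arrays, Ceacam1, Selplg and Icam2 lower, and the groups of Cd44 and F11r overlap.

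Icam1 encodes the ligand through which neutrophils, monocytes, endothelium and hepatocytes are gripped by LFA-1 and Mac-1. Its log2 level was 12.49, 12.88 and 12.65 after Con A, against 10.59, 10.29 and 11.46 after PBS. The lowest Con A array lay 1.03 above the highest PBS array. The mean was 12.67 ± 0.20 after Con A and 10.78 ± 0.61 after PBS (SD, n = 3 each), a difference of 1.90 ± 0.28 (SE), or 3.72-fold (limma adjusted p = 0.00559). PBS replicate 3 was the high array of its group and widened the PBS spread. Without it the difference was 2.24, and with any other array left out it lay between 1.65 and 1.99.

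Icam2, a ligand of LFA-1 that is present on resting leukocytes, platelets and endothelium, did not pass the test. Its log2 level was 8.01, 7.99 and 8.03 in the Con A arrays, against 8.61, 8.61 and 8.10 in the PBS arrays. The Con A arrays lay within 0.03 of each other, and PBS replicate 3 stood only 0.07 above the highest of them. The difference was -0.43 (95% interval -0.76 to -0.10) and missed the threshold (limma adjusted p = 0.102). Without PBS replicate 3 it was -0.60, with an adjusted p of 0.00263 by the same test. Of the fits with 1 array left out, that fit called the most genes, 2765. With any other array left out Icam2 did not pass, at limma adjusted p between 0.198 and 0.271.

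Vcam1, the ligand of the integrin VLA-4, stood at 8.45, 8.45 and 8.06 after Con A and at 6.78, 7.13 and 7.62 after PBS on the log2 scale. The groups were 0.44 apart at their closest, between Con A replicate 3 and PBS replicate 3. The mean was 8.32 ± 0.22 after Con A and 7.18 ± 0.42 after PBS (SD, n = 3 each). Vcam1 thus rose by 1.15 ± 0.21 (SE), or 2.21-fold (limma adjusted p = 0.0139). Without Con A replicate 2 the difference was 1.08 and the adjusted p was 0.0688, which ends the call.

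Kupffer cells and liver endothelium also express Vcam1. The mean log2 level of 12 Kupffer cell markers was 7.77, 9.35 and 8.31 in the Con A arrays, against 7.87, 8.24 and 8.16 in the PBS arrays, so Con A replicate 2 stood 1.26 above the PBS mean. Of these 12 markers 0 rose and 1 fell (limma), the iron exporter gene Slc40a1, while Clec4f, Timd4 and Vsig4 differed by 0.69, 0.67 and 1.23 without passing. The part of these cells in the Vcam1 result was not tested.

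Pecam1, which encodes a junctional and leukocyte receptor with inhibitory motifs, had the smallest adjusted p among the members. Its log2 level was 9.27, 9.21 and 9.76 after Con A, against 7.67, 7.83 and 8.07 after PBS. The gap between the groups, 1.14, exceeded the whole range within either group, 0.54 in Con A and 0.40 in PBS. Pecam1 rose by 1.55 ± 0.17 (SE), or 2.94-fold (limma adjusted p = 0.00176), and with 1 array left out the rise lay between 1.38 and 1.66.

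Pecam1 is abundant on endothelium and platelets, so their markers were read beside it. Of 14 endothelial markers 0 passed the limma test in either direction, 12 had a difference above 0, and 3 had a mean level above the median gene. Only Flt1, which differed by 0.68, had an unadjusted p under 0.05, and 1 marker passed without Con A replicate 1. The list mean was 6.64, 6.94 and 6.79 in the Con A arrays and 6.65, 6.64 and 6.67 in the PBS arrays. The defining endothelial genes Cdh5, Tek, Kdr and Tie1 differed by 0.52, 0.16, -0.02 and 0.07 on the log2 scale. Of 7 measured platelet genes 1 rose, Itga2b by 0.73, and 3 did without Con A replicate 1, while 1 fell without PBS replicate 3. Ppbp, Gp9 and Pf4 differed by 2.20, 1.02 and 1.00 without passing, and 6 of the 7 differences were above 0. The platelet list mean was 7.48, 8.92 and 8.28 after Con A and 7.35, 7.38 and 7.65 after PBS. The part of endothelial cells and platelets in the Pecam1 result was not tested.

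The list of eosinophil, basophil and mast cell markers, like Pecam1, was higher after Con A. Of its 11 members 5 rose and 0 fell, among them the stem cell factor receptor gene Kit by 1.43. The count was 1 without Con A replicate 1 or 3 or PBS replicate 1 or 3, and 7 without Con A replicate 2. Its mean was 8.95, 8.34 and 9.20 in the Con A arrays and 7.64, 8.20 and 8.05 in the PBS arrays, without overlap. Con A replicate 3 was highest and Con A replicate 2 lowest of their group both in this list and in Pecam1. In Pecam1, however, Con A replicates 1 and 2 were close, at 9.27 and 9.21. PBS replicate 1 was the lowest PBS array in both. The highest was PBS replicate 2 in the list and PBS replicate 3 in Pecam1. The part of these cells in the Pecam1 result was not tested.

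**Figure D2:**
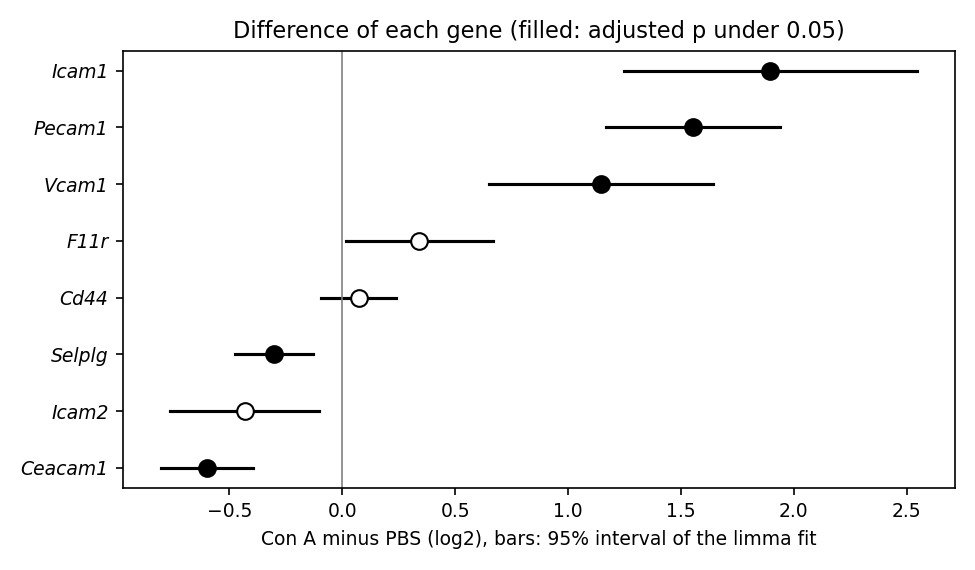
Points give the difference, Con A minus PBS on the log2 scale, of each member with its 95% interval from the limma fit, and filled points passed the test. Icam1, Pecam1 and Vcam1 lie above 1, Ceacam1 and Selplg lie below 0, and the interval of Cd44 covers 0.

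Ceacam1, a homophilic adhesion molecule and inhibitory receptor of granulocytes, monocytes and hepatocytes, had the largest fall. Its log2 level was 12.64, 12.52 and 12.51 after Con A, against 13.28, 13.17 and 13.04 after PBS. Every Con A array was at least 0.40 below every PBS array. Ceacam1 fell by 0.60 ± 0.09 (SE), and was thus 1.52-fold lower (limma adjusted p = 0.00536). It kept its call with any 1 array left out, at differences between -0.66 and -0.54. Ceacam2, a close mouse paralogue, differed by -0.13 (limma adjusted p = 0.476) and Ceacam10 by -0.23 (adjusted p = 0.44). Sharing of probes between Ceacam1 and its paralogues was not tested.

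Selplg encodes PSGL-1, the main selectin ligand of neutrophils and monocytes. Its log2 level was 12.60, 12.61 and 12.67 after Con A, against 13.02, 12.87 and 12.91 after PBS. The groups were 0.20 apart, and the fall was the smallest among the called members. Selplg fell by 0.30 ± 0.07 (SE), and was 1.23-fold lower (limma adjusted p = 0.0384). Leaving out any 1 of the 6 arrays ended this call, at adjusted p between 0.0553 and 0.128, with the difference between -0.33 and -0.26. Ceacam1 and Selplg lie high on the array's scale, whose highest values were at 14.2 to 14.3. Icam1 reached a like level after Con A, with a mean of 12.67. Whether this level limited any of these differences was not tested. Monocytes carry both Ceacam1 and Selplg. The monocytic marker list stood at -1.58, -1.05 and -1.06 from its PBS mean in the Con A arrays. Of its 8 markers 5 fell and 0 rose by limma. The part of monocytic cells in the falls of Ceacam1 and Selplg was not tested.

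Cd44, the hyaluronan receptor, stood at 12.01, 12.08 and 12.10 after Con A and at 12.05, 11.97 and 11.95 after PBS on the log2 scale. The groups overlapped and lay within 0.15 of each other. Its difference was 0.07 (95% interval -0.09 to 0.24; limma adjusted p = 0.596). The single row for Cd44 does not separate its splice forms, and the same holds for Pecam1 and Ceacam1.

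F11r encodes JAM-A, a junctional molecule that leukocytes and platelets also carry. Its log2 level was 9.66, 9.88 and 10.03 after Con A, against 9.26, 9.59 and 9.69 after PBS. Con A replicate 1 lay below PBS replicate 3, so the groups overlapped. The difference was 0.34 (95% interval 0.01 to 0.67) and did not pass over all genes (limma adjusted p = 0.184).

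The spread within groups differed between members and between arrays. The PBS arrays spanned 1.16 log2 units for Icam1, 0.84 for Vcam1 and 0.52 for Icam2, while the Con A arrays spanned 0.40, 0.39 and 0.03. For 6 of the 8 members PBS replicate 3 was the PBS array nearest the Con A mean, as it was for 35.1% of all genes. Selplg and Cd44 were the exceptions. The differences of all 8 members kept their direction with every array left out.

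**Figure D3:**
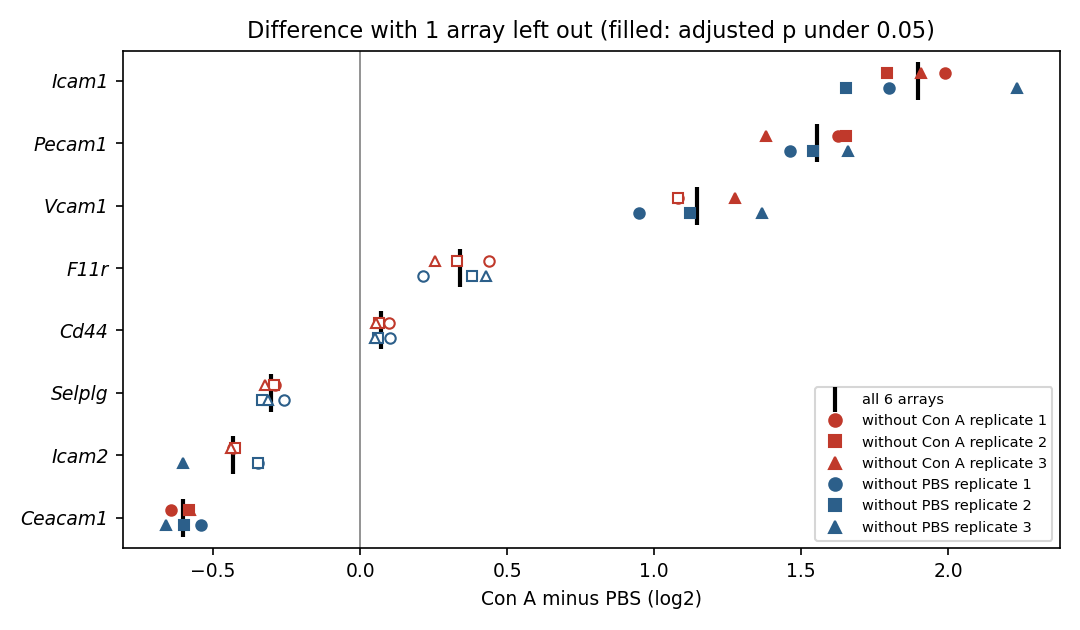
Each row gives the difference of 1 member, Con A minus PBS on the log2 scale, from all 6 arrays (black bar) and with each array left out in turn. Colour names the group of the missing array, the symbol its replicate, and filled symbols passed the test. Without PBS replicate 3 the Icam1 difference reaches 2.24 and Icam2 passes, and no Selplg symbol is filled.

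Genes whose pattern over the 6 arrays lay closest to each called member were found by root mean square distance, after each gene was centred on its own mean. Closest to Icam1 were Irgm1, an interferon-inducible GTPase gene, at 0.115 log2 units, the NF-kB inhibitor gene Tnfaip3 at 0.131 and the checkpoint ligand gene Cd274 at 0.137. Irgm1 shared the high PBS replicate 3, at 11.48 there against 10.35 and 10.36 in the other PBS arrays. Tgm1, Kit and the kinase gene Pim2 lay nearest to Pecam1, at 0.120 to 0.143. The genes nearest Vcam1 were Ccdc122, the phosphatase gene Ptpn2 and Agpat5, at 0.108 to 0.169. Ceacam1 was matched most closely by Cnot6l, Cyb5r1 and Tspan14, and Selplg by the kinase gene Ptk2b, Pan3 and Msrb1, all within 0.031. These distances describe likeness in 6 arrays and carry no test.

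Partners of the members were read from 10 lists of the adhesion pathway, with 122 measured genes, of which 8 rose, 15 fell and 99 did not pass. These are 6.56% and 12.3% of the listed genes, beside 4.59% and 7.22% of all genes, and the median difference of the listed genes was -0.02. Leaving out Con A replicate 2 gave 11 calls, leaving out Con A replicate 3 gave 12, and leaving out PBS replicate 1 gave 9, while 9 of the 23 held with any 1 array left out. Those 9 were the rise of Cemip2 and the falls of Itgal, Fut4, Cd200r1, Adam15, Mmp9, Apbb1ip, Cyth4 and Inpp5d. Monocytic markers fell over the same arrays, 5 of 8 past the test and 0 higher, with a list mean of 9.38, 9.92 and 9.91 after Con A and 11.09, 10.75 and 11.07 after PBS. In sorted cells measured in bulk, fewer monocytic cells and less of a transcript per cell cannot be told apart.

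Among 12 integrin genes that encode counter-receptors, 2 fell and 0 rose, with a median difference of -0.14. Itgal, the alpha chain of LFA-1 that binds both ICAM proteins, stood at 12.13, 12.18 and 12.11 after Con A, against 12.79, 12.54 and 12.57 after PBS. It fell by 0.49 ± 0.09 (SE; limma adjusted p = 0.0111), and its groups did not overlap. Itga4, the alpha chain of VLA-4 that binds VCAM-1, was at 10.51, 11.16 and 10.88 after Con A, against 12.04, 11.50 and 11.86 after PBS. It was 1.94-fold lower (limma adjusted p = 0.0187), a call that ended without Con A replicate 3 or without PBS replicate 1. Itgam, Itgb2 and Itgb1, which encode the other chains of Mac-1, LFA-1 and VLA-4, differed by -0.15, -0.14 and 0.15 without passing.

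Enzymes that build the sugars read by selectins followed a mixed pattern, with 1 of 15 higher and 2 lower, at a median of -0.16. Fut4, a fucosyltransferase that helps to make selectin ligands on myeloid cells, was at 7.39, 7.30 and 7.26 after Con A, against 8.53, 8.29 and 8.05 after PBS. It fell by 0.98 ± 0.12 (SE; limma adjusted p = 0.00322). Fut7, the main fucosyltransferase for PSGL-1 in leukocytes, fell by 0.81 ± 0.15 (SE; limma adjusted p = 0.0149), and the call ended without Con A replicate 2 or 3 or PBS replicate 1. C1galt1, which extends mucin-type sugars, rose by 0.36, and this call held only in the fit without PBS replicate 3. Tpst2, which sulfates tyrosines of PSGL-1, differed by -0.53 without passing (adjusted p = 0.0566).

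Of 8 other selectin ligands and mucins, 1 fell and 0 rose, at a median of -0.09. It was Glg1, the gene of the E-selectin ligand ESL-1, by 0.31, and its call held only without PBS replicate 3. Sele, the gene of endothelial E-selectin, differed by 0.08, with overlapping groups (limma adjusted p = 0.625).

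**Figure D4:**
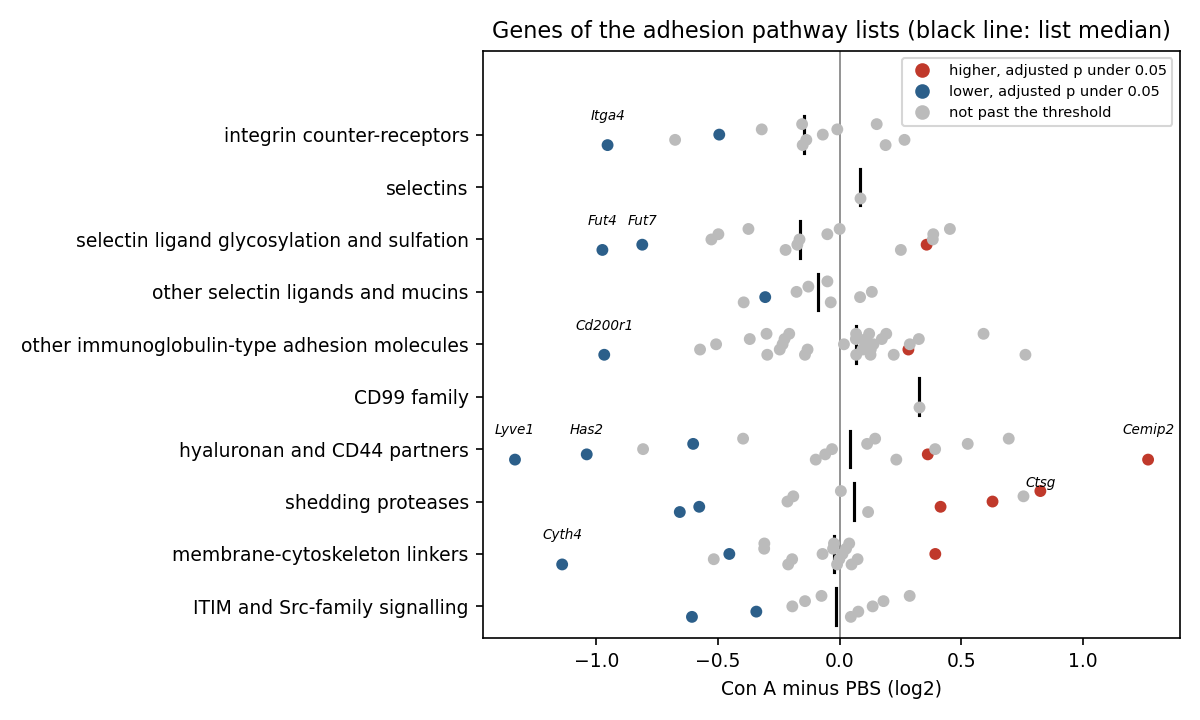
Each point is 1 gene of a pathway list, placed by its difference, Con A minus PBS on the log2 scale. Red points rose and blue points fell past the test, grey points did not pass, and black lines give list medians. Named points are called genes with a difference over 0.8 in size, from Lyve1 at -1.33 to Cemip2 at 1.27.

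Of 31 other immunoglobulin-type adhesion molecules, 1 rose and 1 fell, beside 4.59% and 7.22% of all genes, at a median of 0.07. Cd200r1, an inhibitory receptor of myeloid cells, fell by 0.97 ± 0.18 (SE; limma adjusted p = 0.0148). Cd47, the partner of the phagocyte receptor SIRP alpha, rose by 0.28, a call lost in each of the 6 fits with 1 array left out. The ICAM relatives Icam4 and Icam5 differed by 0.29 and 0.14 without passing, and the JAM relatives Jam2 and Jam3 by 0.17 and 0.07. Cd99l2, a CD99 relative in leukocyte transmigration and the single measured gene of that list, differed by 0.33 without passing.

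Around Cd44, 16 genes of hyaluronan and CD44 partners held 2 rises and 3 falls, at a median of 0.04. Cemip2, a cell-surface protein linked to hyaluronan breakdown, stood at 10.14, 10.19 and 10.32 after Con A, against 8.96, 9.20 and 8.67 after PBS. It rose 2.41-fold (limma adjusted p = 0.00177) with every Con A array above every PBS array. Lyve1, a hyaluronan receptor of lymphatic and sinusoidal endothelium and some macrophages, was at 8.36, 8.28 and 8.31 after Con A, against 9.80, 10.09 and 9.06 after PBS, and was 2.52-fold lower (limma adjusted p = 0.0111). Its call ended without Con A replicate 2 or PBS replicate 1. Has2, a hyaluronan synthase gene, fell by 1.04 (adjusted p = 0.0242), a call that held only without Con A replicate 1 or without PBS replicate 3.

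Among 10 proteases and regulators of shedding, which can cut adhesion molecules from the surface, 3 rose and 2 fell, at a median of 0.06. Adam15 fell by 0.66 ± 0.09 (SE; limma adjusted p = 0.0041) and Mmp9, gelatinase B, by 0.58 ± 0.08 (SE; adjusted p = 0.00401). Ctsg, cathepsin G, rose by 0.83, a call that held only without PBS replicate 2. Adam9, a membrane-bound metalloprotease, rose by 0.63, and the call ended without Con A replicate 2 or 3 or PBS replicate 1 or 2. Adam10 and Adam17, the main sheddases of leukocytes, differed by -0.21 and 0.01 without passing.

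Linkers between adhesion receptors and the cytoskeleton held 1 rise and 2 falls in 18 genes, at a median of -0.02. Cyth4, a cytohesin gene of leukocytes, was at 10.38, 10.44 and 10.91 after Con A, against 11.69, 11.64 and 11.83 after PBS, and was 2.20-fold lower (limma adjusted p = 0.00326). Apbb1ip, which encodes the Rap1 effector RIAM, fell by 0.45 (adjusted p = 0.0106). Ezr, which encodes ezrin, a linker of CD44 and ICAM proteins to actin, rose by 0.39 (adjusted p = 0.0128), a call lost without Con A replicate 2 or PBS replicate 1. Of 10 genes that signal at inhibitory motifs, 0 rose and 2 fell, at a median of -0.01. Inpp5d, the lipid phosphatase SHIP1, fell by 0.61 ± 0.07 (SE; limma adjusted p = 0.00189) and Csk, a kinase that restrains Src-family kinases, by 0.34, a call that held only without PBS replicate 3. Ptpn6 and Ptpn11, the genes of SHP-1 and SHP-2 that CEACAM1 and PECAM-1 recruit, differed by 0.05 and 0.08 without passing.

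The label of the sort was checked on its defining markers. Itgam, the CD11b gene, averaged 12.77 after Con A and 12.92 after PBS, and Ly6g, a gene of the Gr-1 epitope, 13.50 and 13.59 (log2 means, n = 3 each), and neither passed the test. Of 9 granulocytic markers 0 passed the limma test in either direction and 0 had an unadjusted p under 0.05. Their list means were 13.33 to 13.35 after Con A and 13.28 to 13.41 after PBS. These means lie near the highest values of the arrays, 14.2 to 14.3. Whether that limited the differences of these markers was not tested. Con A replicate 2 stood apart in liver cell markers: its mean of 11 hepatocyte genes lay 0.74 above the PBS mean, against 0.01 and 0.04 in the other Con A arrays, though 0 of these genes passed by limma, also before adjustment. Its platelet genes lay 1.46 above the PBS mean. Of 8 stellate, 10 T cell and EL4, 7 NK and 8 dendritic cell markers 0 passed by limma, where 0, 2, 1 and 0 had an unadjusted p under 0.05, though 2 NK markers were higher without Con A replicate 2. The dendritic list mean was 7.755 in Con A replicate 3 and 7.686 in PBS replicate 3, against 7.094 to 7.273 in the other arrays. The part of dendritic cells in the results of the members was not tested. Of 6 B cell markers 1 fell. Leaving out PBS replicate 3 gave 3 lower, and 0 passed when Con A replicate 1 or 2 or PBS replicate 1 or 2 was left out. Icam1, Pecam1 and Ceacam1 passed without Con A replicate 2, with differences of 1.79, 1.65 and -0.58.

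**Figure D5:**
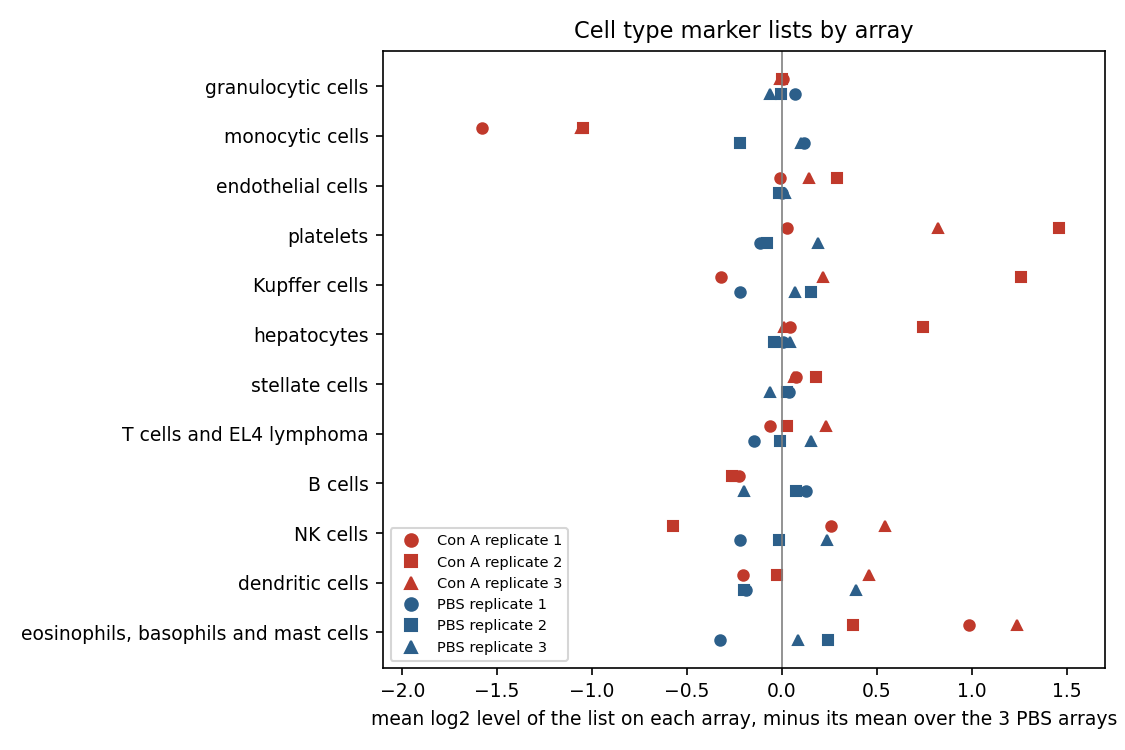
Points give the mean log2 level of a cell type's markers on each array, minus the mean of the 3 PBS arrays, with colour for the group and symbol for the replicate. Monocytic markers lie 1.05 to 1.58 below the PBS mean in Con A arrays, eosinophil, basophil and mast cell markers lie above it, and Con A replicate 2 is high in platelet, Kupffer and hepatocyte markers.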

How the data were processed

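Expression was measured with a mouse Affymetrix gene array on total RNA after whole-transcriptome amplification and biotin labelling, per the labels' protocols. The authors deposited log2 expression values, and RMA and Partek are named without versions in the submitters' processing notes. RMA brings arrays to a common distribution and can compress differences at both ends of the scale. Array medians were 7.05 to 7.08. They carry no detection calls, and precision is limited by the 6 arrays. For the array's genome build, the sources used here give nothing.

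Of 35556 rows, 21789 had 1 gene symbol, and the row with the highest mean over 6 arrays stood for each of 19938 genes. The groups were compared with limma 3.58.1 under R 4.3.3 (lmFit, eBayes, two-sided), with Benjamini-Hochberg adjustment over all genes. The fit was tried on data simulated with independent noise for each gene and array. That simulation held no effects shared by the genes of 1 array, so it does not cover them. Differences are Con A minus PBS. Members, lists and alternatives were chosen with earlier results of these data known. Named genes were the 8 members, in each list the up to 3 called genes of largest difference, textbook integrin and selectin partners, and the 3 nearest genes of each called member. Further listed genes named for their role, and all called genes that held in every fit, were chosen after their values were seen, as were the single marker genes. Of 131 pathway entries 9 had no single-symbol row. Promoters came from RefSeq (GRCm38.p6). Alternatives were 1 array left out, the replicate number as a block, scaling, a filter on low values, row choice, rows tested and moderation. Plots used Python 3.11.15 and matplotlib 3.10.9.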

Additional observations from a re-analysis of the deposited data

How the results depend on the processing

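All 8 members kept their direction in the 14 alternatives each. With 1 array left out, 3 to 5 members passed, 2 to 3 higher and 1 to 2 lower, and the pathway lists had 9 to 31 calls, 1 to 9 higher and 8 to 22 lower. Over all genes these fits called 1140 to 2765 (PBS replicate 1 left out gave the lowest count and PBS replicate 3 the highest; leaving out Con A replicate 2 gave 1272, and Con A replicate 3 gave 1480), 458 to 1114 higher and 682 to 1651 lower. The unmoderated linear model called 671 genes, 290 higher and 381 lower. It called 5 listed genes, 2 higher and 3 lower, and 0 members in either direction. An unadjusted p under 0.05 was reached by 5 members there and by 7 with limma. The share of all genes under that cut-off was not counted, so these counts have no background. In the unmoderated model the adjusted p was 0.05 for Pecam1 and Ceacam1, 0.0664 for Selplg, 0.0863 for Icam1 and 0.121 for Vcam1. With all rows of the table tested, 1 member was called lower, since Selplg was at 0.0596, and 5 listed genes were called higher. There more rows entered both the moderation and the adjustment, and their parts were not separated. Whether the replicate numbers pair the arrays was not settled. Deviations from the group means correlated at 0.228, -0.17 and 0.555 between arrays of the same number. Not every array correlated best with its own number. Deviations within a group cancel out in each gene, so these correlations depend on each other and cannot exclude pairing. With the replicate number as a block, 2539 genes and 5 members passed, 1 of them lower, since Selplg lost its call (adjusted p = 0.0728) and F11r gained one (adjusted p = 0.0443). Median centring, quantile normalization, the filter on low values (all 8 members passed it), row averaging and trended robust moderation changed no member's call. Levels near either end of the array's scale may limit how large a difference can appear, which was not tested.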
